A study of Mus musculus with 16 samples.

Results

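Adipokines are proteins that fat tissue secretes. The genes described here are Lep, Adipoq, Retn, Rbp4, Cfd and C1qtnf3, and their members on the array were all probe sets that the platform's annotation pairs with exactly 1 of these symbols. That rule gave 6 probe sets for 5 genes, of 12422 probe sets that are not controls: 2 for Lep, called the brighter and the dimmer by their mean signal, and 1 each for Adipoq, Retn, Rbp4 and C1qtnf3. The 5 genes are among 8251 that the annotation names in this way. Cfd, which encodes the complement protease adipsin, has no listed probe set and was skipped. The arrays hold RNA of retroperitoneal fat from gonadectomised mice of both sexes. DHT (dihydrotestosterone, an androgen that is not converted to oestrogen) was given under the skin at a dose of 0.1 mg, and tissue was taken at 1, 3, 6 or 12 h, or at 18 or 24 h, afterwards. The groups were gonadectomised females given DHT (6 arrays, 1 per time), gonadectomised females given vehicle (2), gonadectomised males given DHT (6, 1 per time) and gonadectomised males given vehicle (2). Every mouse, controls included, had thus lost its gonads, and no intact animals were analysed here. The labels place the vehicle arrays at 24 h, give neither strain nor age, and describe fat from all mice of a group being collected together. An array may therefore stand for a pool, and the p-values measure the spread between arrays, which may be technical.

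Leptin, the product of Lep, is released in proportion to fat stores and acts on the brain to restrain feeding. Adiponectin, from Adipoq, is an abundant hormone of fat cells that improves insulin action, and resistin, from Retn, opposes insulin action in mice. Rbp4 carries retinol in blood and comes from liver and fat. C1qtnf3 encodes CTRP3, a secreted relative of adiponectin with the same collagen-like and globular C1q domains. Adipsin cleaves complement factor B in the alternative pathway.

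Differences that passed the test lay between the sexes and not between DHT and vehicle. C1qtnf3 had higher signals on every female array (191 to 650) than on any male array (7.52 to 80.8). The sexes did not overlap for 4.21% of all probe sets tested. All male signals of C1qtnf3 lay below the filter on low signal, so that its fold is not exact. Lep and Rbp4 were lower in females once male vehicle replicate 2, an array rich in skeletal muscle RNA, was left out. In that fit 15.6% of all probe sets passed the test between the sexes. Relative to the mean of adipocyte reference genes, Lep stayed lower in females on average with overlap, and Rbp4 did not differ. No adipokine probe set passed the test for DHT against vehicle at any time, with or without male vehicle replicate 2.

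The genes lie on different chromosomes in RefSeq's GRCm38.p6 annotation: Lep on chromosome 6 (29060221 to 29073876), Adipoq on 16 (23146536 to 23157968), Retn on 8 (3655770 to 3659818), Rbp4 on 19 (38116620 to 38125321) and C1qtnf3 on 15 (10952119 to 10980162). The 250 bases before the annotated start are shown for the 4 genes that fat cells are known for, since these members are compared with each other below. Sequences come from RefSeq on GRCm38.p6 and run 5′ to 3′ on the gene's strand, with capitals marking matches to TTNNGNAA, the core of sites for C/EBP factors.
Lep, chr6:29059971-29060220, plus strand: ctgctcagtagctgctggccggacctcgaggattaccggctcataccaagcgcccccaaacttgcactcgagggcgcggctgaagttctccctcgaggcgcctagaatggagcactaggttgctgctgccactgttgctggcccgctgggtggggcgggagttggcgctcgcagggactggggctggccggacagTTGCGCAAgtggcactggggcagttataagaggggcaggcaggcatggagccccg
Adipoq, chr16:23146286-23146535, plus strand: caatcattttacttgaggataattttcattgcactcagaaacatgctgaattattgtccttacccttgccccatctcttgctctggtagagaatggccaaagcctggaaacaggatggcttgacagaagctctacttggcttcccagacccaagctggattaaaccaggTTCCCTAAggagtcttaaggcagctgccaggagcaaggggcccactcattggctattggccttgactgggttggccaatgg
Retn, chr8:3655520-3655769, plus strand: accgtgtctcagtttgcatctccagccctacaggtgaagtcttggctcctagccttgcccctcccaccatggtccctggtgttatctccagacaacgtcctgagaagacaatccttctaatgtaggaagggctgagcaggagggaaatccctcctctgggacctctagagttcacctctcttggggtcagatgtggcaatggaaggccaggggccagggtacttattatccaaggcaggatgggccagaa
Rbp4, chr19:38125322-38125571, minus strand: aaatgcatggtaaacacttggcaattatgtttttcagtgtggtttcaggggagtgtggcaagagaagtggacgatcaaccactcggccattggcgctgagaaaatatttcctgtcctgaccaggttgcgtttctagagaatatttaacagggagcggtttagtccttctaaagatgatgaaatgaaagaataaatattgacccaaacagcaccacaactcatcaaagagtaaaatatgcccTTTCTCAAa
The match lies at bases -55 to -48 from the start in Lep, -81 to -74 in Adipoq and -9 to -2 in Rbp4. Retn has none in this window. The window of a further annotated start of Rbp4, which lies inside the annotated gene span, is not shown. Neither is the C1qtnf3 window, which reaches into the span of its gene. They also hold matches, at -128 to -121 and -59 to -52 in Rbp4 and at -182 to -175 in C1qtnf3. The motif was searched on both strands and occurs in 36.8% of 32851 promoter windows of the same length. AGAACA, the hexamer that androgen and glucocorticoid receptors bind (16.1% of windows), and AGGTCA, the hexamer of many other nuclear receptors (14.0%), were found on neither strand of the 4 windows shown. These letter matches are descriptions of the windows and not binding sites.

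Values are the authors' MAS5 signals, which are linear brightness values with every array scaled to the same trimmed mean of 500. Tests used limma on log2(signal + 16) with Benjamini-Hochberg adjustment over all 7453 probe sets that passed a filter on low signal, and a probe set was called at an adjusted p under 0.05. All 6 adipokine probe sets passed the filter. C1qtnf3 did so only through the females: its mean log2(signal + 16) was 8.68 in females and 5.50 in males, against a filter of 7.04. Xist, the RNA of the inactive X chromosome, had signals of 1033 to 2200 on the 8 female arrays and 4.74 to 61.0 on the 8 male arrays. All 17 adipocyte reference genes on the array, such as Fabp4, Plin4 and Cidec, had mean signals above the filter in both sexes.

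Male vehicle replicate 2 stood apart from the other arrays. All 22 skeletal muscle genes tested exceeded there their signal on every other array, at a median of 11.4 times the mean over the remaining 7 male arrays, and 16 of 17 adipocyte reference genes lay below it (median ratio 0.148). Every macrophage gene tested, 16 in all, was also lower (0.232). Female DHT 12 h held the highest summed signal of 6 exocrine pancreas genes, 93407, and the next highest sum was 8284. Fewer fat cells in a sample and less RNA per fat cell cannot be told apart in these data.

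The adipokines followed the fat cell genes on male vehicle replicate 2. Retn was 50.2-fold lower there than the mean over the remaining 7 male arrays, the dimmer Lep probe set 29.9-fold, Rbp4 26.8-fold, Adipoq 13.3-fold and the brighter Lep probe set 5.96-fold, and each of these 5 probe sets had its lowest signal of all 16 arrays there. C1qtnf3 differed: its signal of 80.8 was the highest of the male arrays, 3.13-fold above the other males (25.8 ± 10.5, SD, n = 7). All of these male signals were below the filter signal of 116, so this fold is not exact. Since male vehicle replicate 2 is 1 of 2 male vehicle arrays and 1 of 4 vehicle arrays, each comparison is given with it and without it.

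**Figure D1:**
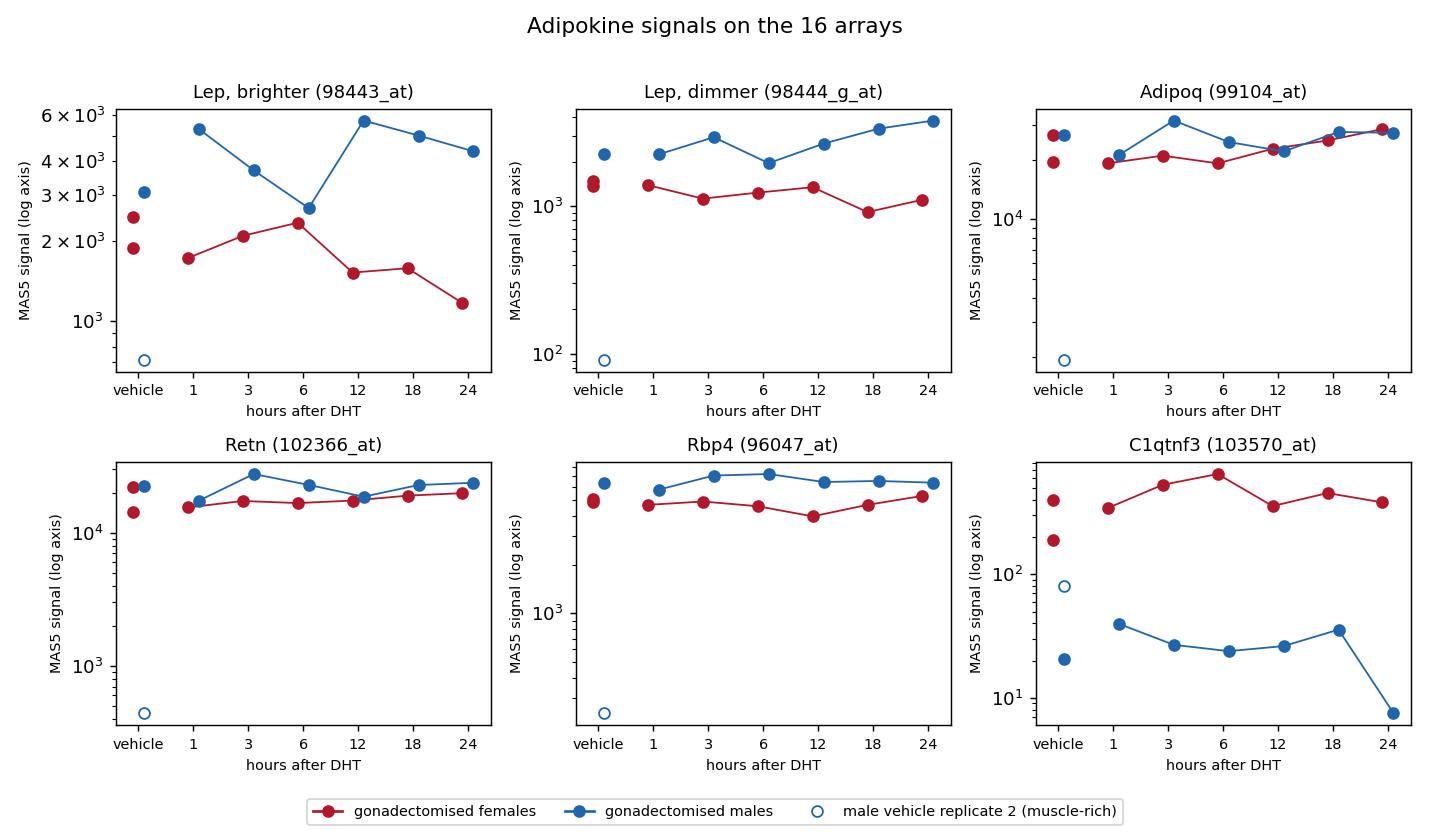
MAS5 signal (log axis) of the 6 adipokine probe sets by treatment and hours after DHT; each point is 1 array, lines join the DHT arrays of a sex, and the open circle is male vehicle replicate 2. C1qtnf3 lies higher on each female array than on any male array, and the open circle is the lowest point in the other 5 panels.

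C1qtnf3 was bright in females and dim in males. Female arrays had signals of 345, 532, 650, 357, 456 and 383 in order of time from 1 to 24 h after DHT, and 191 and 402 with vehicle. Male arrays had 39.7, 26.9, 23.9, 26.2, 35.7 and 7.52 at the same times, and 20.5 and 80.8 with vehicle. The lowest female array lay above the highest male array, and 4.21% of all 7453 probe sets tested had sexes that did not overlap. Every male signal was also below the filter signal of 116. Because the probe set passed the filter through the females, its call in the filtered fits supports nothing. A limma fit of all 12422 probe sets with no filter on signal gave a female over male difference of 3.18 ± 0.29 on the log2 scale (SE, 8 arrays against 8; limma adjusted p = 7.7e-05), where 3.53% of probe sets were called. Detection calls were not used here, so how much of the male signal is background was not tested, and the size of the difference is not exact. The pseudocount of 16 also makes the fold smaller than the ratio of the signals.

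The other 5 probe sets had means above the filter in both sexes. With all 16 arrays limma called 0 of these 5 between the sexes, where 5.58% of all 7453 probe sets were called, and 1 of 5 had an unadjusted p under 0.05, against 19.4%. Likewise 0 of 5 had female and male arrays that did not overlap, against 4.21% of all probe sets. Without male vehicle replicate 2, 4 of 5 were called, against 15.6% of all probe sets, and 3 of 5 did not overlap, against 6.36%. The 3 were both Lep probe sets and Rbp4, and Retn was the other one called. On the 12 DHT arrays alone, which include no vehicle array at all, 4 of 5 were called, against 12.3% of all probe sets.

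Leptin was lower in females. The brighter Lep probe set had signals of 1727, 2095, 2349, 1523, 1581 and 1168 in females from 1 to 24 h after DHT and 1880 and 2476 with vehicle. In males it had 5302, 3701, 2667, 5706, 5010 and 4366 at those times, and 3064 and 715 with vehicle. At each of the 6 times the female array was below the male array, although at 6 h the gap was small. The dimmer Lep probe set had 1386, 1124, 1234, 1341, 911 and 1105 in DHT females, with 1473 and 1367 in vehicle females. Its male signals were 2240, 2923, 1953, 2647, 3340 and 3792 after DHT, and 2267 and 91.5 with vehicle. Apart from the muscle-rich array, the highest female signal was below the lowest male signal for both probe sets.

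With 16 arrays neither Lep probe set was called between the sexes: the log2 differences were -0.87 ± 0.37 for the brighter and -0.53 ± 0.60 for the dimmer (limma adjusted p = 0.225 and 0.7). Without male vehicle replicate 2 they were -1.19 ± 0.21 and -1.12 ± 0.16, or 2.28-fold and 2.17-fold lower in females (limma adjusted p = 0.00206 and 0.000504). Both were called in all 15 fits that left out 1 more array. The 12 DHT arrays alone gave -1.34 ± 0.21 and -1.22 ± 0.17 (limma adjusted p = 0.00281 and 0.00141). The probe sets thus gave similar differences, though across arrays of the same sex they followed each other only loosely (r = 0.34 over 8 females and 0.47 over 7 males, a description over arrays that share a scaling).

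Rbp4 varied little within a sex. Its signals were 4658, 4884, 4569, 3957, 4659 and 5289 in females from 1 to 24 h after DHT and 4846 and 5026 with vehicle. Male arrays had 5780, 7055, 7211, 6439, 6536 and 6377 after DHT, and 6352 and 243 with vehicle. Every female array was below every male array except male vehicle replicate 2. The difference was 0.12 ± 0.58 with 16 arrays (limma adjusted p = 0.946). It was -0.47 ± 0.07 without male vehicle replicate 2, or 1.38-fold lower in females (limma adjusted p = 0.000959), and -0.49 ± 0.08 on the DHT arrays alone (limma adjusted p = 0.00429).

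Resistin differed less. Retn signals were 15466, 17290, 16675, 17414, 18966 and 19794 in DHT females and 21849 and 14301 in vehicle females. Males had 17383, 27555, 22828, 18624, 22786 and 23689 after DHT, and 22571 and 442 with vehicle. The sexes overlapped. With 16 arrays the log2 difference was 0.38 ± 0.70 (limma adjusted p = 0.833). It was -0.32 ± 0.10 without male vehicle replicate 2, or 1.25-fold lower in females (limma adjusted p = 0.0387), but 11 of the 15 fits that left out 1 more array did not call it (adjusted p up to 0.101). Quantile normalization of the 15 arrays gave -0.15 and no call (limma adjusted p = 0.0887).

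Adiponectin was not called between the sexes. Adipoq signals were 19216, 21008, 19206, 22757, 25081 and 28657 in DHT females and 26610 and 19401 in vehicle females. Males had 21143, 31645, 24644, 22078, 27695 and 27429 after DHT, and 26828 and 1946 with vehicle. The difference was 0.27 ± 0.47 with 16 arrays (limma adjusted p = 0.82) and -0.20 ± 0.09 with 15 (limma adjusted p = 0.173), so that its sign turned with the muscle-rich array. Adipoq and Retn signals lie far above the median signal of the arrays (184 to 220), and whether their spots were saturated cannot be judged from the deposited values.

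**Figure D2:**
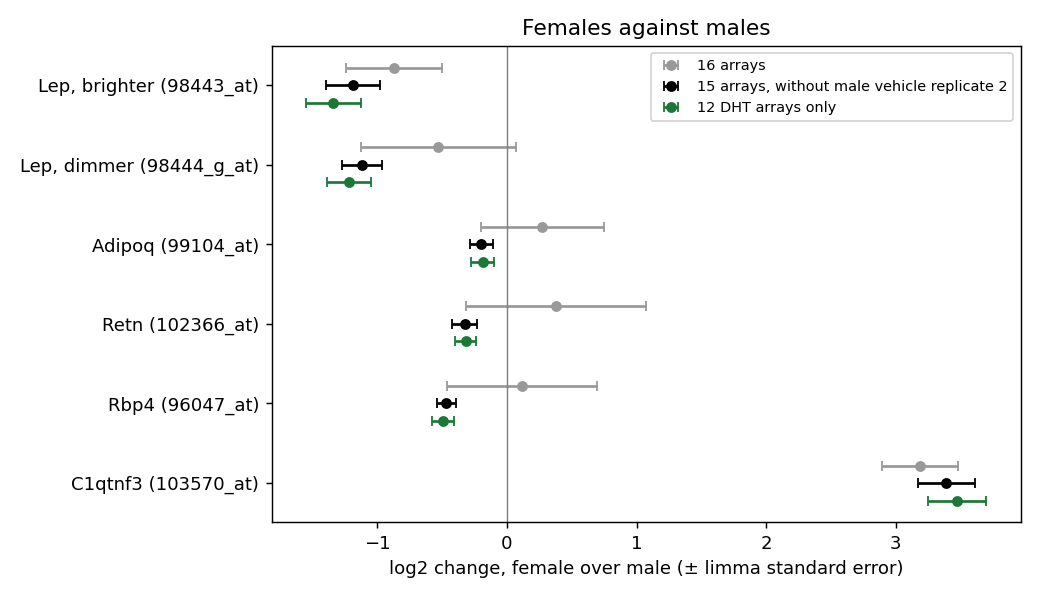
Log2 change of each adipokine probe set in females over males (points) with its limma standard error (bars), for all 16 arrays, for 15 arrays without male vehicle replicate 2, and for the 12 DHT arrays. The bars narrow for every probe set without the muscle-rich array, most for Retn, Rbp4, Adipoq and the dimmer Lep probe set. C1qtnf3, whose male signals are all below the filter, stays above 3 in each fit.

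Most adipocyte reference genes were lower in females without the muscle-rich array. Over the 15 arrays 10 of 17 adipocyte reference genes fell and 0 rose, where 15.6% of all probe sets were called in either direction (median log2 difference -0.49, against 0.01 over all probe sets), among them Plin4 (-0.98), a lipid droplet coat protein, Cidec (-0.86), which fuses droplets, and the lipases Lipe (-0.82) and Pnpla2 (-0.71). Their mean log2 level was 0.47 lower in females. Over the same arrays 12 of 16 macrophage genes rose in females (median 0.46) and 9 of 22 skeletal muscle genes fell (median -0.51). With 16 arrays these counts were 0 of 17, 6 of 16 and 1 of 22, against 5.58% of all probe sets. The summed signal of the 18 macrophage genes on the array was 39962 to 53451 in females, against 28706 to 37074 in the 7 other males, and Fcer1g and Msr1 had means under the filter in both. For the 23 muscle genes the sums were 23770 to 59069 in females and 44843 to 80389 in those males, with Myh2 under the filter in both sexes and Tcap in females. Of other cell types, the mesothelial genes Wt1 rose (0.98) and Upk3b fell (-0.38) of 3 tested, and the endothelial gene Flt1 fell (-0.33) of 9. The mean of Wt1 was under the filter in males and above it in females, so its call supports nothing. Of exocrine pancreas genes 0 of 5 were called, and of kidney and adrenal genes 0 of 4. The part of macrophage, muscle and other RNA in the adipokine differences was not tested.

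When each adipokine was expressed relative to the mean of the 17 adipocyte reference genes, leptin remained lower in females on average, though the sexes overlapped. The brighter Lep probe set lay -1.37 ± 0.39 log2 units from that mean in females (SD, n = 8) and -0.65 ± 0.48 in males (SD, n = 7, without male vehicle replicate 2; exact two-sided permutation p = 0.00606, 1 of 24 such tests). For the dimmer Lep probe set the values were -1.91 ± 0.26 and -1.27 ± 0.33 in females and in males (exact permutation p = 0.00155). With 16 arrays the differences were -0.75 for the brighter and -0.41 for the dimmer (exact permutation p = 0.00357 and 0.166). Over the 15 arrays the brighter ranged from -2.20 to -0.94 in females and from -1.33 to -0.06 in males. The dimmer ranged from -2.28 to -1.56 and from -1.77 to -0.84. Lep did not rise with the adipocyte mean within a sex (brighter r = -0.05 in females and -0.73 in males, dimmer 0.01 and 0.26). Rbp4 lay at the same distance in females (0.01 ± 0.07) and in males (0.01 ± 0.08; exact permutation p = 0.968).

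A limma fit on 15 arrays centred in this way turned the sign of Adipoq, to 0.27 ± 0.09 higher in females (limma adjusted p = 0.0224), and of Retn, to 0.14 ± 0.10 (limma adjusted p = 0.205). In it the brighter Lep probe set was -0.72 ± 0.21 and the dimmer -0.65 ± 0.16 (limma adjusted p = 0.0107 and 0.00386). This centring moves every probe set up in females by the 0.47 that the adipocyte genes differ, and it called 5136 of 7453 probe sets. For Adipoq and Retn the direction between the sexes thus depends on whether the level is taken per array or per adipocyte gene.

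**Figure D3:**
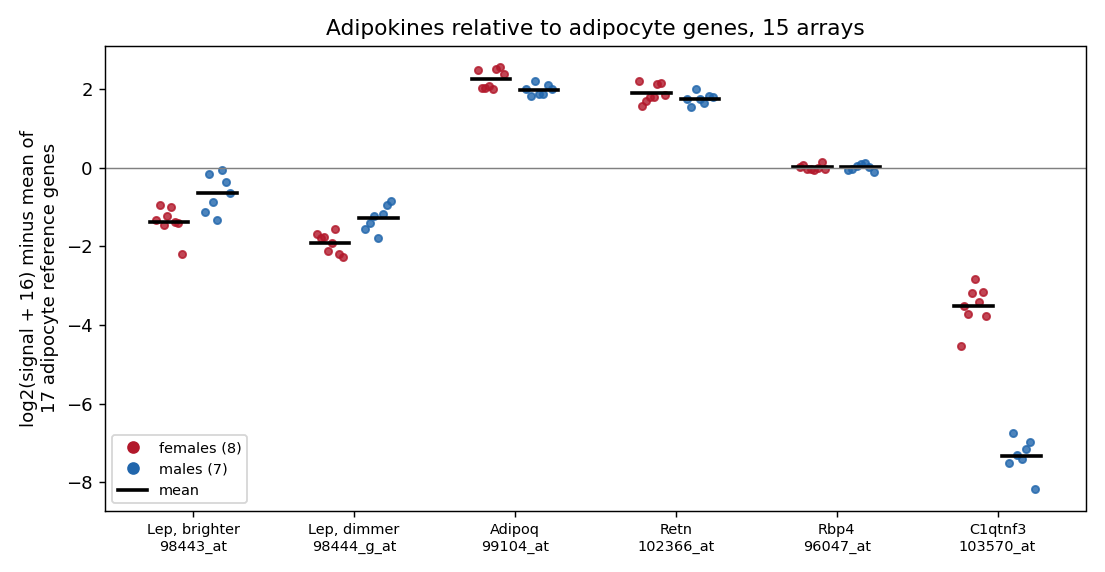
Log2(signal + 16) of each adipokine probe set minus the mean of the 17 adipocyte reference genes on the same array, for 8 female and 7 male arrays (points) with group means (lines); levels of different probe sets are not comparable. Both Lep probe sets lie lower in females on average with overlap, Rbp4 coincides in both sexes, and C1qtnf3 lies higher on each female array than on any male array.

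Related genes were counted in lists drawn from knowledge of adipokine biology. Of 17 other adipokines tested over the 15 arrays, 3 rose and 3 fell in females, against 15.6% of all probe sets called (652 higher and 508 lower). Those that rose were Fstl1 (1.04 ± 0.11; limma adjusted p = 6.88e-05), a follistatin-like secreted protein, Sparc (0.65 ± 0.10; 0.0011), a matrix-binding glycoprotein, and Tgfb1 (0.91 ± 0.23; 0.0183), the growth factor. Those that fell were Agt (-0.72 ± 0.10; 0.00035), the precursor of angiotensin, Rarres2 (-0.60 ± 0.07; 0.00017), which encodes chemerin, and Angptl4 (-0.48 ± 0.11; 0.00953), an inhibitor of lipoprotein lipase. With 16 arrays 2 rose, Fstl1 and Sparc, and 0 fell, against 5.58% of all probe sets called. Nampt, Ccl2, Vegfa and C1qtnf1, another C1q relative, were not called (-0.16, 0.23, -0.12 and 0.67).

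Among receptors and carriers, 1 of 7 tested was called over the 15 arrays, a share near the 15.6% of all probe sets: Adipor2, an adiponectin receptor, was lower in females (-0.37 ± 0.11; limma adjusted p = 0.0459), while Adipor1 differed by 0.02 ± 0.11. Of 7 complement genes tested, C3ar1, the receptor for the anaphylatoxin C3a, rose (1.01 ± 0.13; limma adjusted p = 0.000248). Cd59a, an inhibitor of the membrane attack complex (-0.78), and C2 (-0.37) fell. Of 12 transcription factors of adipokine genes 2 fell, again a share near that of all probe sets: Cebpa (-0.33 ± 0.07; 0.00672) and Id3 (-0.41 ± 0.09; 0.0106). Pparg, the master regulator of fat cells, was not called (-0.16 ± 0.14). Of 8 genes for adiponectin folding and release, the chaperone Hspa5 rose (0.46) and Gstk1, needed for adiponectin assembly, fell (-0.42). With 16 arrays 1 gene of these 4 lists was called, C3ar1, against 5.58% of all probe sets.

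**Figure D4:**
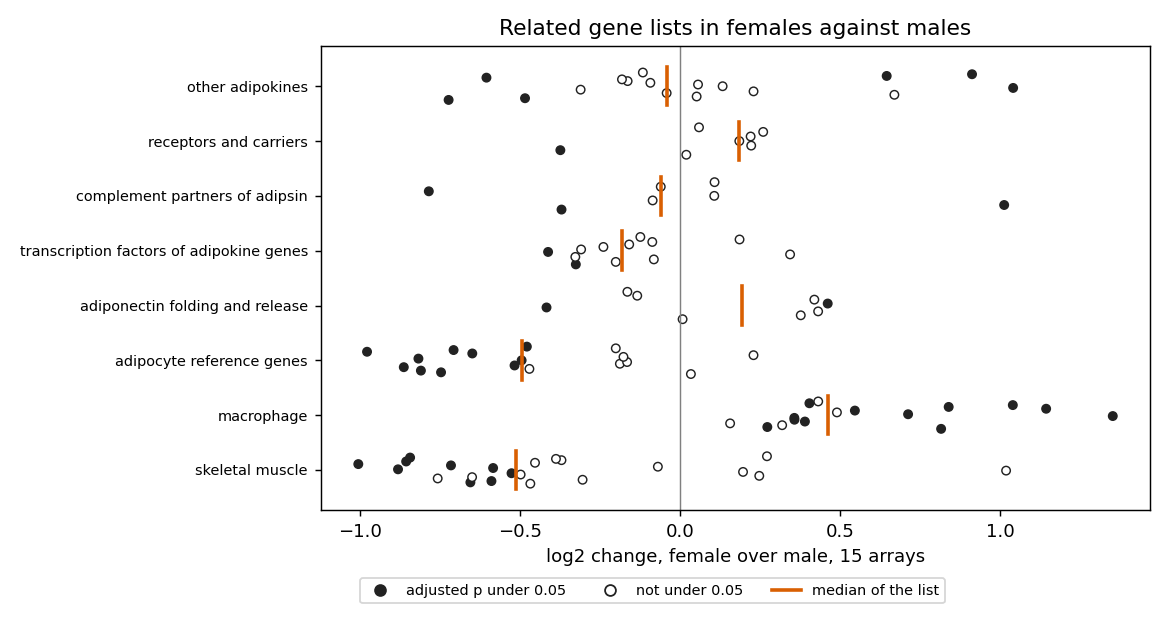
Log2 change in females over males over 15 arrays for the tested genes of 8 lists; filled points have a limma adjusted p under 0.05 and the bar is the list's median. The adipocyte and muscle lists lie mostly below 0 and the macrophage list wholly above it, while the adipokine-related lists straddle 0.

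No adipokine passed the test for DHT against vehicle. Averaged over the 6 times, 0 of 6 adipokine probe sets was called against vehicle by limma, where 0.0403% of all probe sets were called with 16 arrays and 0.0537% with 15. None reached an unadjusted p of 0.05 either, in both sets of arrays (5.21% and 3.11% of all probe sets did). DHT and vehicle arrays overlapped for all 6 (0.148% and 0.215% of all probe sets did not). The same fits called Fkbp5, a chaperone gene induced by steroid receptors, at 1.38 ± 0.18 with 16 arrays (limma adjusted p = 0.017) and 1.52 ± 0.16 with 15 (0.00297), a gene known from an earlier look at these data to respond.

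With 16 arrays the differences looked large and were imprecise: Retn 1.38 ± 0.80, Rbp4 1.13 ± 0.67, the dimmer Lep probe set 1.10 ± 0.69, Adipoq 0.90 ± 0.55, the brighter Lep probe set 0.59 ± 0.43 and C1qtnf3 0.05 ± 0.34 (limma adjusted p between 0.63 and 0.949). Without male vehicle replicate 2 they were -0.02 ± 0.12 for Retn, -0.04 ± 0.09 for Rbp4, -0.07 ± 0.19 for the dimmer Lep probe set, -0.04 ± 0.11 for Adipoq, -0.04 ± 0.26 for the brighter Lep probe set and 0.47 ± 0.28 for C1qtnf3 (limma adjusted p = 0.999 each). That array, 1 of 4 vehicle arrays, therefore carried the positive values of the first 5. Relative to the adipocyte reference genes the 15 arrays gave exact permutation p-values from 0.749 to 0.978 for DHT against vehicle.

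**Figure D5:**
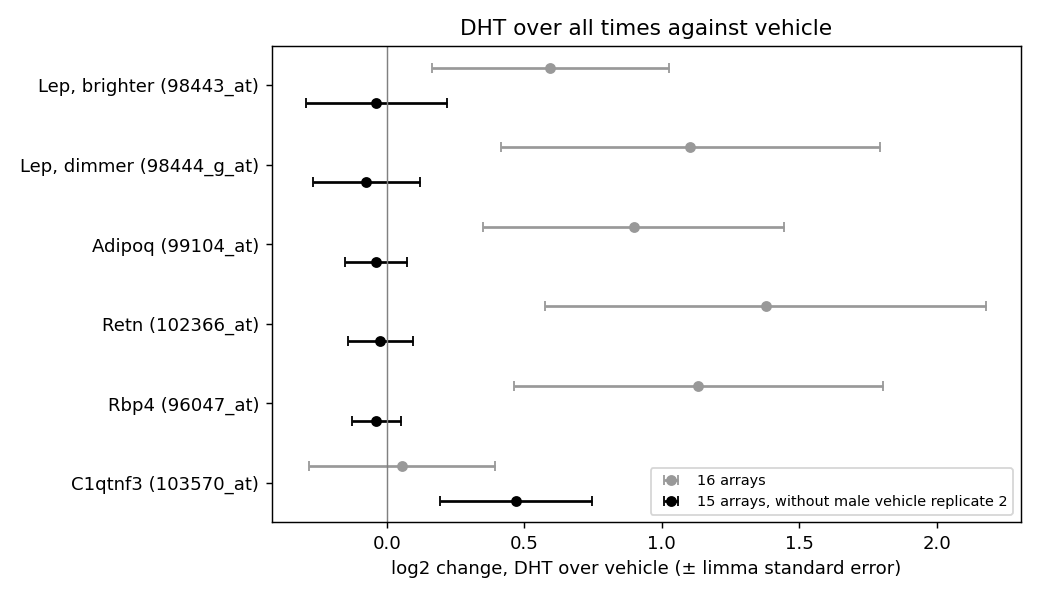
Log2 change of each adipokine probe set in DHT over vehicle, averaged over the 6 times (points), with its limma standard error (bars), for all 16 arrays and for 15 arrays without male vehicle replicate 2. The 16-array values reach 1.38 for Retn, and without that array all but C1qtnf3 lie between -0.07 and -0.02.

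No adipokine was called at any time point. The comparisons with vehicle at each time share the same vehicle arrays. Over the 15 arrays the log2 differences of Adipoq were -0.29, 0.07, -0.18, -0.13, 0.10 and 0.19 in order of time from 1 to 24 h (SE 0.16 each). Those of Retn were -0.28, 0.13, -0.03, -0.14, 0.06 and 0.12 (SE 0.17). C1qtnf3 had 0.52, 0.63, 0.72, 0.34, 0.65 and -0.03 (SE 0.39), and the brighter Lep probe set stayed between -0.30 and 0.12 (SE 0.36). At 24 h both DHT arrays of Adipoq (28657 and 27429) lay above every vehicle array, of which the highest had 26828. By rank of signal on the array, Adipoq was at 9 on both, against 8, 6 and 7 on the vehicle arrays other than male vehicle replicate 2. It was the only adipokine probe set whose DHT arrays at a time did not overlap the vehicle arrays, 1 of 6 at 24 h, a separation that 7.61% of all probe sets showed at 24 h with 16 arrays and 12.8% with 15 (5.47% to 10.5% and 9.04% to 16.4% at the other times). Limma called 0 of 6 probe sets at each time with 16 arrays, where between 0 and 0.0403% of all probe sets were called, and with 15 arrays (0 to 0.0537%). None had an unadjusted p under 0.05 at any time, which 1.84% to 5.18% of all probe sets had with 16 arrays and 2.09% to 6.19% with 15. A test over any time also called 0 of 6 (0% of all probe sets with 16 arrays and 0.0671% with 15), and 0 of 6 at an unadjusted p under 0.05 (1.15% and 3.69%).

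Late arrays (12, 18 and 24 h) did not differ from early arrays (1, 3 and 6 h) by the test for any adipokine, with 0 of 6 called in either set of arrays (0% and 0.0268% of all probe sets) and 0 of 6 at an unadjusted p under 0.05 (2.62% and 6.94%). Over the 15 arrays Adipoq had the smallest p, with a late minus early difference of 0.18 ± 0.10 (limma adjusted p = 0.735). In females its signal was 22757 to 28657 on the late arrays, all above the early arrays (19206 to 21008), while in males late and early arrays overlapped. The female vehicle arrays had 26610 and 19401. By rank of signal on the array Adipoq was at 13, 11 and 9 on the late female arrays and at 9, 11 and 12 on the early ones. How many of all probe sets separate in this way was not counted, so nothing is concluded from the separation of the female arrays.

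The DHT values of leptin had opposite signs in the sexes, and neither passed the test. In females alone the DHT over vehicle difference of the brighter Lep probe set was -0.34 ± 0.24, and in males without the muscle-rich array, which leaves 1 male vehicle array assumed to vary like the others, it was 0.49 ± 0.33 (limma adjusted p = 1 each). The difference between the sexes in the DHT response was -0.84 ± 0.50 with 15 arrays (limma adjusted p = 0.999) and -1.88 ± 0.68 with 16 (limma adjusted p = 0.611). No adipokine was called in this comparison, 0 of 6 with either set (0% and 0.0134% of all probe sets). At an unadjusted p under 0.05 there were 2 of 6 with 16 arrays, both of Lep, and 0 with 15 (6.25% and 2.83% of all probe sets). It rests on the male vehicle arrays: without male vehicle replicate 1, which leaves the muscle-rich array as the only male vehicle, all 6 were called, with the brighter Lep probe set at -2.91, and so were 31.5% of all probe sets.

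Likeness between arrays set Adipoq and Retn together. Within females their r was 0.89 (8 arrays) and within males 0.96 (7 arrays without male vehicle replicate 2), across arrays that share a scaling. This was not particular to the pair. Rpl41 and Eef1a1, which were similarly bright, were as like Adipoq (r = 0.92 for each in females, and 0.97 and 0.98 in males). Rbp4 followed the mean of the adipocyte reference genes, with r = 0.88 in females and 0.66 in males. The genes most like each adipokine were taken as the 5 with the highest r of log2 signal over the 15 arrays, which for Lep, Rbp4 and C1qtnf3 mostly reflects the sexes. They are a description and were not tested.

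For Adipoq these genes were Fasn, the fatty acid synthase, Gsn, Rpl41, Car3 and Eef1a1, with r of 0.87 to 0.98 within females and 0.96 to 0.98 within males. Retn was most like Gsn, Thrsp, Dbi, Lgals1 and Adipoq itself. Lep was most like Acaa2, Atp6v1h, Amotl2, Hk2, a hexokinase, and 1810058I24Rik; of these Atp6v1h had r = 0.90 in females and 0.63 in males. Rbp4 was most like Phldb1, Reep5, Uqcrq, Retsat, a retinol saturase, and Pnpla2, the main triglyceride lipase.

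The genes most like C1qtnf3 were Tnc, Tmem45a, Kdelr3, Thbs2 and Postn, of which tenascin C (Tnc), thrombospondin 2 (Thbs2) and periostin (Postn) are matrix glycoproteins. Tnc had signals of 2184 ± 531 in females (SD, n = 8) and 107 ± 20.0 in males (SD, n = 7), and Postn 9824 ± 1435 in females and 2819 ± 436 in males. The male means of Tnc and of Tmem45a (89.1) were below the filter signal of 116, so the size of their differences is not exact. Thbs2 had 707 ± 117 in females and 202 ± 19.4 in males. Within females the r of these genes with C1qtnf3 was 0.74 for Tnc, 0.70 for Thbs2 and 0.18 for Postn, so that apart from the sex difference they followed it unevenly.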

How the data were processed

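Affymetrix arrays of 12488 probe sets were read from the deposited value table, 1 array per sample. The values are deposited signal intensity, which the submitters' processing notes tie to MAS5 (version: not given in the sources used here). On each array the values have a trimmed mean of 500 (2% left out at each end), so levels are relative within an array. The platform annotation pairs 10833 probe sets with 1 symbol, 396 with several and leaves 1193 unnamed here; 66 are controls. Values were analysed as log2(signal + 16) with limma 3.58.1 in R 4.3.3 (eBayes with a trend, sex and time as factors, 8 residual degrees of freedom, or 7 without male vehicle replicate 2) on probe sets whose mean was at or above the 40th percentile (signal 116). The exact permutation tests were two-sided. The number of arrays limits the precision. Replicate numbers follow deposit order and pair nothing. The fits were checked on simulated data. Of 200 probe sets given a log2 change of 1, 51.5% were recovered for DHT over all times and 71.5% between the sexes. With a change of 2 these shares were 92.5% and 97%. The adipokine members, the gene lists and the rule for the most alike genes were chosen with earlier results of these data known; the lists were named by counts plus the genes that passed. Alternatives were other pseudocounts, filters, scalings, covariates and subsets of arrays.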

Additional observations from a re-analysis of the deposited data

Results flagged for a closer look

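Male vehicle replicate 2 lay far from the other 7 male arrays in 4 of 30 checks of a group's highest or lowest array. Its signals were 1946 for Adipoq, 442 for Retn and 243 for Rbp4, all below the other male arrays. For C1qtnf3 the signal was 80.8, above the other male arrays but below the filter signal of 116. Chance flags about 1 in 20 groups. The 4 flags share this 1 array, on which the skeletal muscle genes were high and the fat cell genes low, and they are not independent of each other. The part of muscle RNA in these values was not tested.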

How the results depend on the processing

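The count of adipokine probe sets called between females and males was 1 of 6 with all 16 arrays, where 5.58% of all probe sets were called. These counts include C1qtnf3 wherever it was tested, although its call in filtered fits supports nothing. The count was 0 with a pseudocount of 1 (5.37% of all probe sets), under which C1qtnf3 no longer passed the filter and was not tested. It was 4 with the skeletal muscle level as a covariate (10% of all) and 5 on the DHT arrays alone (12.3%). With 15 arrays centred on the adipocyte genes, an alternative added after seeing the data, it was 4, where 68.9% of all probe sets were called. Leaving out each of the 16 arrays in turn gave 1 to 5, where 3.52% to 15.6% of all probe sets were called. The 5 came without male vehicle replicate 2, as did the 15.6%. Leaving out 1 more of the 15 arrays gave 4 to 5. The count for the sex difference of the DHT response was 0, and leaving out each array gave 0 to 6, with 6 without male vehicle replicate 1. Among values called in either fit, or larger than their standard error in both, signs turned with the muscle covariate for the dimmer Lep probe set (-0.57), Retn (-0.51) and Rbp4 (-0.53) at 18 h, for Rbp4 between the sexes (-0.90), and for the sex difference of the DHT response of Adipoq (1.00), Retn (1.42) and Rbp4 (1.02). They turned likewise in females alone for the brighter Lep probe set (-0.34) and the dimmer Lep probe set (-0.27) after DHT, and on the DHT arrays alone for Retn (-0.32) and Rbp4 (-0.49) between the sexes. Values within their error that also changed sign there were Adipoq (-0.02), Retn (-0.01) and Rbp4 (-0.08) after DHT in females alone. On the DHT arrays alone Adipoq was -0.19 between the sexes, against a value within its error with 16 arrays. Leaving out each array gave -0.13 to 1.55 for Rbp4 at 1 h, -0.33 to 0.70 for Retn and -0.47 to 0.37 for Rbp4 between the sexes, the lowest without male vehicle replicate 2. The cause was not tested. No alternative changed the counts for DHT against vehicle or for late against early times from 0. No paired analysis was possible because the replicate numbers come from deposit order and each DHT group has 1 array. Signal over background could not be judged, since detection calls were not used, which limits C1qtnf3 in males.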
